A study of Mus musculus with 6 samples.

Results

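The natriuretic system of the newborn heart is described here through 8 genes, chosen by name: the peptide genes Nppa, Nppb and Nppc, the receptor genes Npr1, Npr2 and Npr3, and the processing enzyme genes Corin and Furin. All 8 were found among the 54532 genes of the table, and 7 of them were among the 12431 genes that reached 1 FPKM or more in at least 3 samples and were tested. Heart RNA was sequenced from 6 mice of the outbred ICR stock, all wild type, with titles marked 4d, read here as day 4. Mothers of the control hearts (n = 3) had received citric acid into the abdomen while pregnant. Mothers of the STZ hearts (n = 3) had received STZ by the same route, read here as streptozotocin, a toxin of the insulin-secreting beta cell that serves to model diabetes in pregnancy. The litter of each heart is not labelled, and p-values measure only the spread between these samples. Which parts of the heart were taken is likewise not given.

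Natriuretic peptides are hormones of the heart that promote the loss of salt and water, widen vessels and restrain muscle growth and fibrosis. ANP, from Nppa, and BNP, from Nppb, are made by heart muscle as longer precursors that corin, a membrane protease, and furin, a protease of the secretory pathway, cut to the active form. Both act through the receptor NPR-A (Npr1), which makes cyclic GMP, whereas CNP, from Nppc, acts through NPR-B (Npr2), and NPR-C (Npr3) takes up all 3 peptides and clears them. In the fetal heart Nppa is made in the atria and in the trabeculated ventricle. After birth its ventricular expression falls and it remains an atrial gene, unless the ventricle is under strain.

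The peptides share a ring closed by a pair of cysteines, which is the part that binds the receptors. The coding sequence of this ring is shown for Nppb and Nppc because their products bind different cyclase receptors through it. It spans 51 bases, or 17 codons, and lies in exon 2 of 3 in both genes. The stretches were read from the GENCODE M21 transcripts (GRCm38), at chr4:147986464-147986514 on the plus strand for Nppb and at chr1:86669667-86669717 on the minus strand for Nppc. Capitals mark the bases that are the same in both genes.
Nppb: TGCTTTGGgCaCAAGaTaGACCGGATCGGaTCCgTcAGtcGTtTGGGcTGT
Nppc: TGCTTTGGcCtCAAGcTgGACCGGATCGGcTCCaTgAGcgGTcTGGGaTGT
Of the 51 bases, 40 were the same in both (78.4%), and 13 of the 17 codons encoded the same amino acid.

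Nppa and Nppb are neighbours on chromosome 4, where 13.5 kb separate the end of Nppb (147985788 to 147987205) from the start of Nppa (148000722 to 148002079), both on the plus strand of GRCm38. The sequence before each start is shown because the 2 genes differed from each other across the hearts. From RefSeq (GRCm38.p6), the 250 bases before the Nppa start (chr4:148000472-148000721, plus strand) are given first. For Nppb, the 27 bases at chr4:147985795-147985821 (plus strand) are given. They lie 79 to 105 bases before the RefSeq start, which is 112 bases downstream of the start in the deposited table, so the deposited gene model places them inside the transcript. Capitals mark matches, on either strand, to the letters searched.
Nppa: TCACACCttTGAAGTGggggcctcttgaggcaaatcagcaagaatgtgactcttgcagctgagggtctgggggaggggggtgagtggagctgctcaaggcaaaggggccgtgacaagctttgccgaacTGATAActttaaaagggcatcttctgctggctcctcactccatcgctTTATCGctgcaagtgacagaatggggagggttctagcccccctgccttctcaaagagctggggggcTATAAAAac
Nppb: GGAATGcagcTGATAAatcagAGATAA
For GATA factors, regulators of heart muscle genes, the letters searched were NGATAA. The homeodomain factor NKX2-5 was searched as TNAAGTG, and T-box factors such as TBX5 as GGTGTGA. TEAD factors, effectors of Hippo signalling, were searched as GGAATG and the TATA box as TATAAAA. The CArG box of SRF was searched by its usual pattern. The Nppa stretch held 2 GATA matches, 1 NKX2-5 match, 1 T-box match and 1 TATA match. The 250 bases before the RefSeq start of Nppb held 2 GATA matches, 1 TEAD match and 1 TATA match. No CArG box was matched in either. None of the matches overlapped another. Of the 32851 RefSeq windows of 250 bases, 22.5% held the GATA letters, 10.1% those of NKX2-5, 3.33% those of T-box factors, 12.6% those of TEAD factors, 4.98% the TATA letters and 1.47% a CArG box. A match describes the letters and shows no binding.

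The deposited values are FPKM-type values, that is, reads per kilobase of gene, divided by a scale the authors set for each library. They correspond to 16707268 to 18082599 reads per library, and the scale was 1.21 times these reads in control 2 against 0.985 to 1.03 times in the others, which lowers every value of control 2. Control 2 also stood apart in its cell type markers. Among all genes tested, 3412 (27.45%) had their highest value in control 2. Of the 19 atrial markers other than Nppa, 18 had their highest value there, and their summed level was 5394 FPKM, against 131 and 141 FPKM in controls 1 and 3 and 117 to 156 FPKM in the STZ hearts. Ventricular markers had their lowest value there at 9 of 9, with a sum of 2564 FPKM against 5317 to 6906 FPKM in the other 5 hearts. The lymphocyte genes Cd8a and Rag1, both active in the thymus, were at 24.9 and 25.5 FPKM in control 2 and at most 0.440 and 0.536 FPKM elsewhere, while the lung genes Sftpc, Sftpb and Cldn18 were at or near 0 in all 6. Scgb1a1, a gene of the lung airway, was at 1.30 and 2.5 FPKM in STZ 1 and STZ 2 and at most 0.491 FPKM in the others. All 7 erythroid markers were also highest in control 2, with a sum of 14550 FPKM against 2229 to 4927 FPKM, as were 9 of 10 fibroblast markers, with 1831 against 778 to 982 FPKM. Heart muscle genes were high in every library, with Myh6 at 1137 FPKM in control 2 and 2005 to 2428 FPKM in the others. The group differences of the tested members are therefore given with and without control 2. In whole tissue, fewer cells of a type and less RNA per cell cannot be told apart.

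None of the 7 tested members passed the test between STZ and control hearts (limma on log2(FPKM + 1), two-sided, Benjamini-Hochberg adjusted over 12431 genes, threshold 0.05). Of all genes tested, 3 passed (0.0241%). At an unadjusted p under 0.05 there were 0 members, and 322 genes (2.59%) of those tested. Voom on recovered reads also called 0 members. Without control 2 the counts were 0 members at either level, against 4 genes (0.0322%) past the adjusted and 488 (3.93%) past the unadjusted threshold. The members differed from each other far more in how much they varied between hearts. The SD of log2(FPKM + 1) over the 6 hearts was 2.24 for Nppa and 0.948 for Nppb, larger than in 99.9% and 98.9% of the genes tested. It was 0.0773 for Npr2 and 0.0491 for Furin, where only 6.26% and 1.18% of genes had a smaller one, and the median gene was at 0.182. Without control 2 the SD was 0.934 for Nppa and 1.02 for Nppb, still larger than in 99.4% and 99.5% of genes, with Nppb then above Nppa. Without it, 21.9% of genes had a smaller SD than Npr2 and 7.46% a smaller one than Furin.

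**Figure D1:**
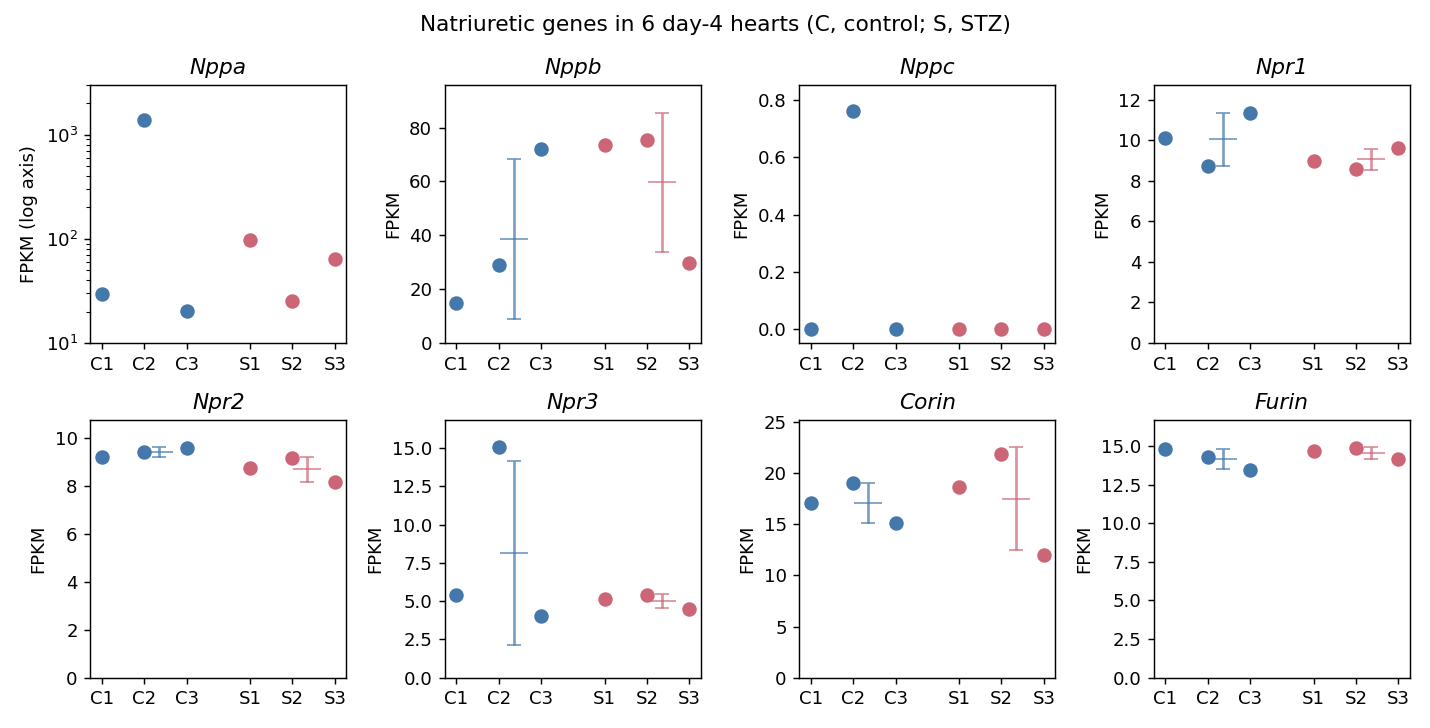
FPKM of the 8 genes in each heart (C1 to C3, control; S1 to S3, STZ), with Nppa on a log axis and bars giving the mean and SD of each group of 3, left out for Nppa and Nppc. Nppa at 1389 FPKM and Npr3 at 15.04 FPKM stand apart in control 2, Nppb ranges from 14.8 to 75.5 FPKM, and Furin lies between 13.5 and 14.8 FPKM in all 6 hearts.

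Nppa, which encodes the precursor of ANP, was at 29.7, 1389 and 20.2 FPKM in controls 1 to 3 and at 96.4, 25.3 and 64.1 FPKM in STZ 1 to 3. Control 2 lay 14.4 times above the highest of the other hearts, and the groups overlapped. Of the 12431 genes tested, 9, Nppa included, exceeded the other hearts in control 2 by at least this factor. Genes below 1 FPKM in the other hearts failed the filter and are not in this count. Among them, the atrial markers Sln and Mybphl stood in control 2 at 320.8 and 180.9 times the highest of the other hearts. By level, Nppa was the 17th most abundant tested gene in control 2 and between the 408th and the 2166th in the others. The controls averaged 479.8 ± 788 FPKM and the STZ hearts 61.9 ± 35.6 FPKM (SD, n = 3 each). On the log2 scale STZ minus control came to -0.81 (SE 1.54, 95% interval -4.47 to 2.84; limma, adjusted p = 0.934), and p was 0.9 by the exact two-sided permutation test, which cannot go below 0.1 with 3 against 3.

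Without control 2 the Nppa difference turned to 1.11 (SE 0.524, 95% interval -0.16 to 2.38; limma, adjusted p = 0.9999). The 2 remaining control hearts, at 29.7 and 20.2 FPKM, then stood against 96.4, 25.3 and 64.1 FPKM, so that 2 of 3 STZ hearts lay above both controls and STZ 2 lay between them. Counting error was small beside this spread, since 306 to 1483 Nppa reads in those 5 hearts give a counting error of 2.60% to 5.72%. The values of those 5 hearts still spanned 4.77-fold.

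The atrial muscle genes Myl7, Sln and Myl4 stood further above the other hearts in control 2 than Nppa did. Myl7, the atrial regulatory light chain of myosin, was at 3930 FPKM in control 2 and at 5.03, 18.3, 5.81, 3.43 and 2.92 FPKM in control 1, control 3 and STZ 1 to 3. Sln, which encodes sarcolipin, an atrial inhibitor of the calcium pump, was at 277.9 FPKM in control 2, at 0.866 FPKM in control 3 and at 0 in the other 4 hearts. Nppa per unit of Myl7 was 0.353 in control 2, 5.91 and 1.10 in controls 1 and 3, and 16.6, 7.38 and 21.9 in the STZ hearts. The 5 hearts other than control 2 carried 20.2 to 96.4 FPKM of Nppa, with Sln at or near 0. Over these 5 hearts some atrial markers followed Nppa and others did not. Control 3 had the lowest Nppa of the 5, with the highest Myl7 and Kcna5 (9.20 FPKM). It was also lowest of the 5 in Bmp10 (0.496 FPKM), Pam (70.9 FPKM) and Tbx5 (5.02 FPKM). Myl4, the atrial essential light chain, was at 452.1 FPKM in control 2, and STZ 1, which led the other 5 in Nppa, also led them in Myl4, at 12.1 FPKM against 1.77 to 3.92 FPKM. The part of these markers in the Nppa difference was not tested.

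**Figure D2:**
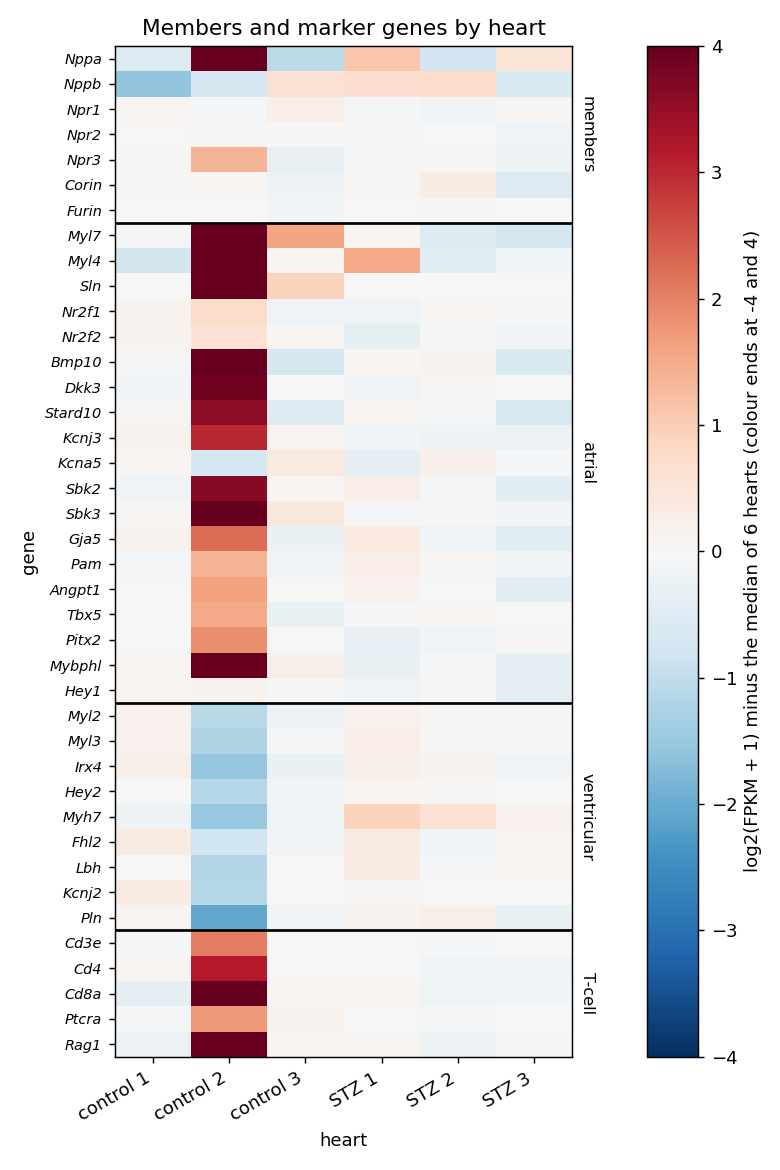
Colour gives log2(FPKM + 1) minus the median of the 6 hearts (columns) for 7 natriuretic genes, 19 atrial and 9 ventricular markers and 5 T-cell genes (rows). In control 2, Nppa and 18 of 19 atrial markers are at their highest and all 9 ventricular markers at their lowest, while Nppb is below its median there. Among all genes tested, 27.45% are highest in control 2.

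Nppb, which encodes the precursor of BNP, was at 14.8, 28.9 and 71.9 FPKM in controls 1 to 3 and at 73.6, 75.5 and 29.7 FPKM in STZ 1 to 3. A low and a high level occurred in both groups: control 1, control 2 and STZ 3 lay at or below 29.7 FPKM, and control 3, STZ 1 and STZ 2 at or above 71.9 FPKM. With 195 to 1023 reads a heart, counting error was 3.13% to 7.16%, against a 5.09-fold range. The group values were 38.6 ± 29.7 and 59.6 ± 25.9 FPKM (SD, n = 3 each), a log2 fold change of 0.78 (SE 0.599, 95% interval -0.64 to 2.20; limma, adjusted p = 0.922; exact permutation p = 0.2). Without control 2 it was 0.72, and over fits without any 1 heart it ran from 0.26 (without control 1) to 1.36 (without control 3). Control 2, with the highest Nppa of all hearts, held a low Nppb, close to that of STZ 3. It was at 28.9 against 29.7 FPKM as deposited, and at 34.9 against 30.4 per recovered reads.

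The ratio of Nppa to Nppb does not depend on how a library is scaled. It was 2.01, 48.1 and 0.281 in controls 1 to 3 and 1.31, 0.335 and 2.16 in STZ 1 to 3. Nppa was the more abundant transcript per kilobase in 4 of 6 hearts and Nppb in control 3 and STZ 2. The difference of the log2 ratio was -1.61 (means -0.03 in STZ and 1.59 in control), and an exact permutation test gave p = 0.7 (0.9 when adjusted over the 3 ratios tested). Without control 2 the difference turned to 0.39.

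Nppc, which encodes the CNP precursor made mainly outside heart muscle, was at 0 in 5 hearts and at 0.763 FPKM in control 2, from 17 reads (exact Poisson 95% interval 0.444 to 1.22 FPKM, counting error only). In the 5 hearts with no read, the limit that a count of 0 allows, 3 reads, is 0.155 to 0.171 FPKM. Nppc did not pass the filter on low values and was not tested.

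**Figure D3:**
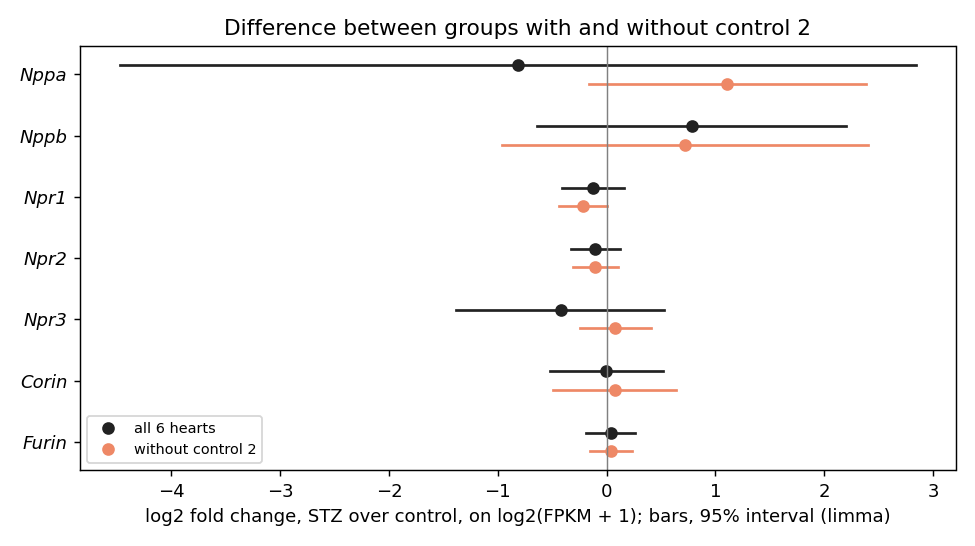
Log2 fold change of the 7 tested genes, STZ over control on the log2(FPKM + 1) scale, with 95% intervals from limma, for all 6 hearts and without control 2. Every interval includes 0, and the points of Nppa, Npr3 and Corin lie on opposite sides of 0 in the 2 fits.

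Among the receptors, Npr1 (chromosome 3, 90450591 to 90465866, minus strand), the guanylyl cyclase that answers ANP and BNP, was at 10.1, 8.72 and 11.4 FPKM in controls 1 to 3 and 9.003, 8.60 and 9.61 FPKM in STZ 1 to 3. Controls 1 and 3 lay above all STZ hearts, and control 2 lay among them. Scaled to each library's own recovered reads, Npr1 was at 9.95, 10.5 and 11.5 in controls 1 to 3 and 9.12, 8.65 and 9.86 in STZ 1 to 3. On that scale Npr1 was the 1 member whose groups did not overlap, a pattern seen at 7.98% of the genes tested, with the STZ side lower at 4.26%. The log2 fold change was -0.13 (SE 0.119, 95% interval -0.41 to 0.16; limma, adjusted p = 0.922; exact permutation p = 0.3), and without control 2 it was -0.22 (95% interval -0.440 to 0.003; limma, unadjusted p = 0.0524, adjusted p = 0.9999). At 691 to 951 reads a heart the counting error of each value was 3.24% to 3.80%.

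Npr2 (chromosome 4, 43631935 to 43651244, plus strand), the guanylyl cyclase receptor of CNP, was at 9.20, 9.43 and 9.59 FPKM in controls 1 to 3 and 8.75, 9.17 and 8.14 FPKM in STZ 1 to 3. On the deposited scale it was the 1 member whose groups did not overlap, a pattern seen at 8.54% of the genes tested, with the STZ side lower at 3.62%. The lowest control value and the highest STZ value differed by less than their counting error, which was 3.26% to 3.77%. The log2 fold change was -0.11 (SE 0.0931, 95% interval -0.33 to 0.12; limma, adjusted p = 0.922), and the exact permutation p was 0.1, the smallest possible. Scaled to each library's own recovered reads, Npr2 was at 9.07, 11.4 and 9.71 in control and 8.855, 9.22 and 8.35 in STZ hearts, and the groups overlapped, so that which of Npr1 and Npr2 separated the groups depended on the scale. Without control 2 the log2 fold change of Npr2 was -0.10. Npr1 and Npr2 lay close together, with Npr1 above Npr2 in 4 of 6 hearts and overlapping ranges.

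Npr3 (chromosome 15, 11839896 to 11907287, minus strand), the clearance receptor and a gene of the endocardium, was at 5.42, 15.04 and 4.03 FPKM in controls 1 to 3 and 5.13, 5.41 and 4.495 FPKM in STZ 1 to 3. Control 2, with 3021 reads, was 2.78 times the highest of the others, a factor that 174 genes (1.40% of those tested) reached, not counting genes that failed the filter. The log2 fold change was -0.42 (SE 0.402, 95% interval -1.38 to 0.53; limma, adjusted p = 0.922; exact permutation p = 0.7) and turned to 0.08 (95% interval -0.247 to 0.404) without control 2, where the 5 hearts spanned 1.35-fold. The endocardial and valve markers other than Npr3 were also at their highest in control 2 at 9 of 10 genes, with a summed level of 273 FPKM there, 154 FPKM in each of the other controls and 123 to 149 FPKM in STZ hearts. Among them, Plvap, which encodes a diaphragm protein of endothelial cells, was at 27.7 FPKM in control 2 and 8.62 to 17.4 FPKM elsewhere, and Cytl1, a secreted protein gene, at 17.98 FPKM against 0.919 to 4.499 FPKM. Postn alone gave 190.4 FPKM of the sum in control 2, and 84.7 to 119.5 FPKM in the other hearts. Nfatc1 was the 1 marker of the 10 not highest in control 2, at 0.915 times the highest of the other hearts. For Sox9 this factor was only 1.013. The rise in control 2 was thus not shared evenly by the list. The part of these markers in the Npr3 value was not tested.

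Within a library, Npr3 per unit of Npr1 was 0.537, 1.73 and 0.355 in control and 0.569, 0.630 and 0.468 in STZ hearts. The order of Npr3 and Npr1 depends on the deposited gene length, 9389 bases for Npr3 and 4783 for Npr1. Per kilobase of it, control 2 was the only heart with more of the clearance than of the signalling receptor transcript. By reads, Npr3 also exceeded Npr1 in control 1 (857 against 813), STZ 1 (856 against 766) and STZ 2 (854 against 691). It did not in control 3 or STZ 3. The log2 ratio differed by -0.32 between groups (exact permutation p = 0.9, adjusted p = 0.9) and by 0.34 without control 2.

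Of the processing enzymes, Corin (chromosome 5, 72300025 to 72504473, minus strand), the cardiac protease that cuts pro-ANP, was at 17.1, 19.01 and 15.2 FPKM in controls 1 to 3 and 18.6, 21.9 and 12.01 FPKM in STZ 1 to 3. On the deposited scale the STZ values enclosed all control values, whereas per recovered reads control 2 was the highest heart, at 22.9 against at most 22.01 in the STZ hearts. The group values were 17.1 ± 1.92 and 17.5 ± 5.03 FPKM (SD, n = 3 each), and the log2 fold change was -0.001 (SE 0.217, 95% interval -0.52 to 0.52; limma, adjusted p = 0.999; exact permutation p = 1.0), and 0.08 without control 2. Its sign changed with the pseudocount, with array weights and without control 1, control 2 or STZ 3. Corin held 1203 to 2196 reads a heart, a counting error of 2.13% to 2.88% against a 1.82-fold range.

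Furin (chromosome 7, 80388585 to 80405436, minus strand), which cuts many precursor proteins in nearly all cells, was the steadiest member, at 14.8, 14.3 and 13.5 FPKM in controls 1 to 3 and 14.6, 14.8 and 14.1 FPKM in STZ 1 to 3. Its CV over the 6 hearts was 3.59%, against a counting error of 1.89% to 2.15%. Per recovered reads the CV was 8.03%, with control 2 at 17.2 and the others at 13.6 to 14.9, and without control 2 it was 3.996%. In each of these 3 forms it was the lowest CV of the 7 tested members. The log2 fold change was 0.04 (SE 0.0938, 95% interval -0.19 to 0.26; limma, adjusted p = 0.946; exact permutation p = 0.6). It was -0.03 when libraries were scaled to equal recovered reads, and 0.04 without control 2. Per kilobase of the deposited gene length, Corin exceeded Furin in 5 of 6 hearts and was below it in STZ 3. The ratios were 1.16, 1.33 and 1.13 in control and 1.27, 1.48 and 0.850 in STZ hearts. By reads, Furin (2166 to 2800) exceeded Corin (1203 to 2196) in every heart. The log2 ratio of Corin to Furin differed by -0.04 (exact permutation p = 0.9, adjusted p = 0.9) and by 0.03 without control 2.

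By median FPKM over the 6 hearts the members fell in the order Nppb (50.8), Nppa (46.9), Corin (17.9), Furin (14.4), Npr1 (9.31), Npr2 (9.18), Npr3 (5.27) and Nppc (0). The order rests on values per kilobase of the deposited gene length. Nppa exceeded Corin in 6 of 6 hearts, though their ranges overlapped. The ranges of Furin and Npr1 were the only ones of tested neighbours in this order that did not overlap. Without control 2 the medians were 71.9 FPKM for Nppb, 29.7 for Nppa, 17.1 for Corin, 14.6 for Furin, 9.61 for Npr1, 9.17 for Npr2 and 5.13 for Npr3, in the same order. Npr2 (8.14 to 9.59 FPKM) and Npr3 (4.03 to 5.42 FPKM) then did not overlap either.

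The genes around Nppa and Nppb did not share the level of Nppa in control 2. Of the other tested genes within 100 kb, 5 are given here, and their value in control 2 was 0.436 to 0.899 times the highest of the other hearts. Clcn6, a chloride transporter gene whose start lies 38.1 kb beyond that of Nppa, was at 3.77 FPKM in control 2 and 4.55 to 5.78 FPKM elsewhere. Mfn2, a gene of mitochondrial fusion, was at 68.1 FPKM in control 2 and 125 to 156 FPKM elsewhere. Plod1, a collagen-modifying enzyme gene, had 15.6 FPKM in control 2 and 16.7 to 19.3 FPKM elsewhere, and 2510039O18Rik had 21.1 to 25.1 FPKM in all 6. Agtrap, which encodes a partner of the angiotensin receptor, averaged 7.33 ± 0.771 FPKM in the controls and 5.89 ± 0.457 FPKM in the STZ hearts (SD, n = 3 each). The log2 difference was -0.27 (SE 0.112; limma, unadjusted p = 0.0465, adjusted p = 0.922), and -0.27 also without control 2. None of the 5 passed the adjusted threshold. Gm13054, an antisense transcript that overlaps Nppa and was named after its values were seen, was at 2.40 FPKM (42 reads) in control 2 and at most 0.394 FPKM elsewhere. As the strand setting is not given, its reads cannot be told apart from those of Nppa.

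**Figure D4:**
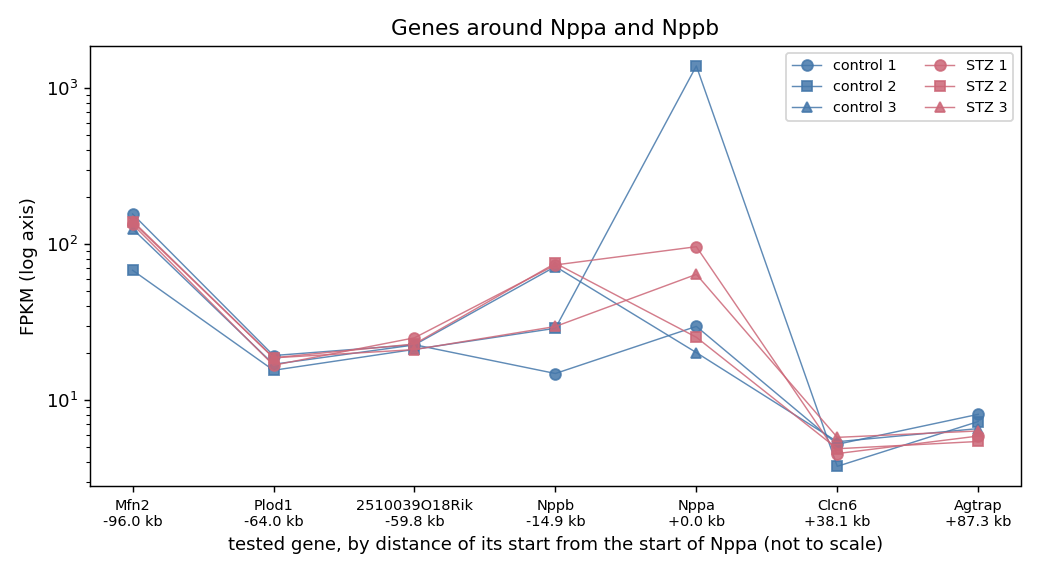
FPKM on a log axis for Nppa, Nppb and 5 tested genes within 100 kb of them, in order of the distance between their start and that of Nppa (not to scale), with 1 line per heart. The lines separate at Nppb and Nppa and run closer together at the other genes. Control 2 is lowest at Mfn2, Plod1 and Clcn6, and furthest below at Mfn2 (68.1 FPKM against 125 to 156 FPKM elsewhere). The larger scale of control 2 lowers all of its values.

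The transcripts whose pattern over the 6 hearts was most like Nppa were Sec61g, Rps26, Cox8a, Mea1 and Snrpf, with Pearson r of 0.993, 0.990, 0.986, 0.983 and 0.982 on log2(FPKM + 1). They came from 769 tested genes with a mean of at least 5 FPKM and a log2 range of at least 1. Their values in control 2 were 1.70 to 3.69 times the highest of the others, far below the 14.4 times of Nppa. Those most like Nppb were Ctgf, Dusp8, Dhrs7, Ankrd1 and Hmgb1, with r of 0.959, 0.945, 0.929, 0.886 and 0.860. Ctgf, a matricellular protein gene, was at 12.1, 32.1 and 49.2 FPKM in controls 1 to 3 and 46.5, 50 and 21.7 FPKM in STZ 1 to 3. Like Nppb, it was lowest in control 1 and highest in STZ 2. Ankrd1, a muscle ankyrin repeat gene, was at 168 FPKM in control 1, 295 FPKM in STZ 3 and 397 to 444 FPKM in the other 4 hearts. Each of the 5 genes most like Nppa put the 6 hearts in the same order as Nppa did (Spearman's rho 1.0). Over the 5 hearts without control 2 the r were 0.867 to 0.952 for Nppa and 0.857 to 0.999 for Nppb. The genes like Nppa met the log2 range of at least 1 only with control 2. All were picked by r over 6 hearts, these 5 included, so the rho and the r follow in part from the choice. These r describe few hearts, in which genes of 1 library share its scale, and they carry no test.

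**Figure D5:**
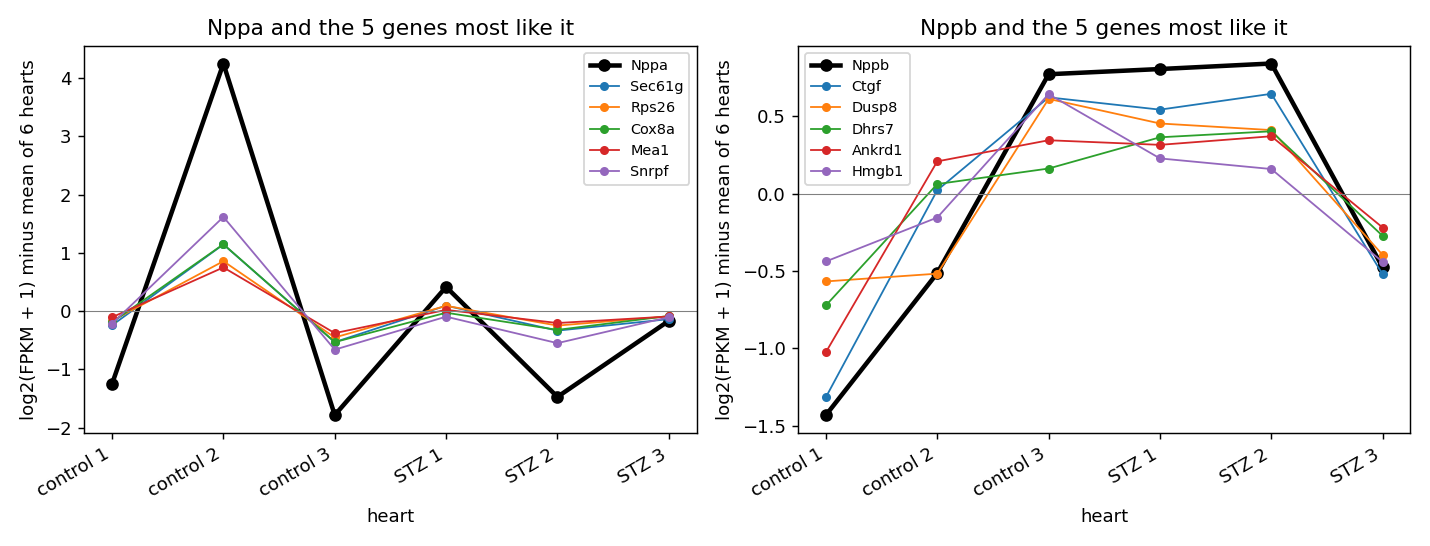
Log2(FPKM + 1) minus its mean over the 6 hearts for Nppa (left) and Nppb (right), in black, and the 5 genes most like each. The genes on the left share the peak in control 2 at a smaller size, and those on the right are lowest in control 1, except Hmgb1, which is at 12.8 FPKM in both control 1 and STZ 3.

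In the other genes of the pathway, taken from 3 lists, limma made 0 calls in either direction, and 0 genes reached an unadjusted p under 0.05, against 0.0241% and 2.59% of all genes tested. Of 13 further proteases and enzymes that process, modify or clear the peptides, 7 were tested, 4 with a positive and 3 with a negative log2 fold change (median 0.06, against 0.03 over all genes tested). Dpp4, a membrane peptidase gene, averaged 3.16 ± 0.389 FPKM in the controls and 2.69 ± 0.178 FPKM in the STZ hearts (SD, n = 3 each, here and below). Pcsk5, a furin relative, averaged 1.71 ± 0.564 and 1.30 ± 0.0858 FPKM. Ide, the insulin-degrading enzyme that also cleaves ANP, averaged 29.9 ± 13.1 and 36.5 ± 0.621 FPKM. Ide was at 14.8 FPKM in control 2 and at most 38.3 FPKM, never below 36 FPKM, in the other 5 hearts, and without control 2 its log2 fold change turned from 0.39 to -0.04. Mme, which encodes neprilysin, the main peptidase of ANP breakdown, did not pass the filter, at 0.619 to 1.75 FPKM.

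Of 21 genes of cyclic GMP synthesis, breakdown and action, 14 were tested, 6 with a positive and 8 with a negative log2 fold change (median -0.02). Without control 2 these were 3 and 11, with a median of -0.07, against -0.002 over all genes. Pde1a and Pde5a, phosphodiesterases that degrade cyclic GMP, had log2 fold changes of -0.35 (SE 0.149) and -0.36 (SE 0.167), and Gucy1b1, a subunit of the guanylyl cyclase that nitric oxide activates, -0.42 (SE 0.213), with unadjusted p of 0.0539, 0.0669 and 0.0887 and an adjusted p of 0.922 each (limma). All 3 were highest in control 2, as were 27.45% of all genes tested. Without control 2 the log2 fold changes were -0.26, -0.26 and -0.19. Prkg1, the kinase that cyclic GMP activates, was at 2.12 to 3.67 FPKM in the 6 hearts.

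Of 23 transcription factors that are described as acting at Nppa or Nppb, 22 were tested. They had 19 positive and 3 negative log2 fold changes (median 0.12), against 7176 and 5255 of all genes tested (median 0.03). Without control 2 the factors had 15 and 7 (median 0.02, against -0.002 over all genes). Control 2 held the lowest value of 14 of the 23. Gata4, which binds GATA sites of heart genes, was at 53.3, 41.03 and 57.5 FPKM in controls 1 to 3 and 60.4, 57.8 and 58.9 FPKM in STZ 1 to 3, a log2 difference of 0.23 (SE 0.15), and of 0.09 without control 2. Myocd, a partner of SRF, had a log2 fold change of 0.50 (SE 0.271) and Hopx, a homeodomain gene that restrains SRF, 0.41 (SE 0.293), and these were 0.18 and 0.09 without control 2. Tbx5, a T-box factor that is also an atrial marker, was at 20.3 FPKM in control 2 and 5.02 to 6.84 FPKM elsewhere.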

How the data were processed

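The authors deposited 1 table of FPKM-type values for 6 heart libraries. Per the submitters' processing notes the build was GRCm38 (mm10). For the aligner, the counting program and strandedness, nothing is given in the sources used here. Values times the deposited gene length were whole multiples of 1 step per library (100% within 0.01 reads), which gave the recovered reads. All 8 members had the position given in GENCODE M21.

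Groups and replicate numbers came from titles and treatment labels. The fit was limma 3.58.1 (R 4.3.3, mean-variance trend, log2(FPKM + 1), group as the only term), tested on simulated data. Fold changes on this scale understate those of low genes. Single values and within-library ratios had exact two-sided permutation tests over the 20 assignments. Intervals and floors (3 reads) cover counting error only. Alternatives covered pseudocount, filter, scaling, replicate block, weights, robust variance, voom and each heart left out. The members and gene lists were chosen with earlier results of these data known. Named were all members, tested genes within 100 kb (1 of them is not reported here), the 5 genes of highest r with Nppa and Nppb, the 3 lowest p in each list and the 3 highest levels in the atrial, ventricular and endocardial lists. Figures were drawn with matplotlib 3.10.9.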

Additional observations from a re-analysis of the deposited data

How the results depend on the processing

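None of the 7 tested members passed under any of the 17 alternatives, and their adjusted p lay between 0.690 and 0.9999 (limma). Nppb stayed positive and Npr1 and Npr2 negative in all of them. Nppa turned to 0.43 with array weights and to 1.11 without control 2, with -1.91 as the lowest value over fits without 1 heart. The array weights were 0.146 for control 2 and 1.06 to 2.68 for the other hearts, so that fit leaned little on control 2. Npr3 ran from -0.76 to 0.0787 (without control 2) over those fits, Corin from -0.17 to 0.23 and Furin from 0.0022 to 0.064. Corin turned positive without control 1 (0.0013), control 2 (0.08) or STZ 3 (0.23), with a pseudocount of 5 (0.0049) and with array weights (0.14). Furin turned to -0.0283 with equal recovered reads, -0.0293 with voom and -0.0194 without haemoglobin, mitochondrial and Xist transcripts in the scale. Over hearts left out, the log2 ratio differences ran from -3.32 to 0.39 for Nppa to Nppb, -0.80 to 0.34 for Npr3 to Npr1 and -0.21 to 0.19 for Corin to Furin. They were positive without control 2 (0.39, 0.34 and 0.03) and, for Corin to Furin, without STZ 3 (0.19). Among all genes, calls were 3, and 0 with the replicate block, 8 with array weights, 1 with voom and 2 to 5 with a heart left out, the highest without control 3. Same-numbered hearts did not deviate together (r = 0.021, -0.041 and 0.092), so the numbers were not taken as pairs. With the replicate number as a block the members had 0 calls too, and every sign-change test of the paired ratios gave p of at least 0.75 (exact). The cause of these changes was not tested.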

Other observations

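Other markers were read beside the natriuretic genes, and none passed the adjusted threshold (limma). An unadjusted p under 0.05 was reached by 2 of 10 fibroblast markers, against 2.59% of all genes tested. In the atrial, ventricular, endocardial, smooth muscle and stress lists it was reached by 1 gene each, of 14, 9, 8, 8 and 11 tested. The ventricular and the stress gene were the same, Myh7. Without control 2 an unadjusted p under 0.05 was reached by 3 of 10 fibroblast markers, against 3.93% of all genes. It was again reached by 1 marker in each of the other 5 lists. Of all 12431 genes tested, 7176 had a positive and 5255 a negative log2 fold change (median 0.03, and -0.002 without control 2). Pairs of values give the mean ± SD of the 3 control hearts and then of the 3 STZ hearts. Atrial markers had 0 of 14 tested members positive (median log2 fold change -0.69), and 6 positive and 8 negative without control 2 (median -0.04). Nr2f2, an atrial transcription factor gene, was at 3.82 ± 0.93 and 2.53 ± 0.366 FPKM, Hey1 at 5.74 ± 0.431 and 4.73 ± 0.775 FPKM, and Pam, which amidates peptides and is abundant in atrial granules, at 196 FPKM in control 2 and 70.9 to 91.8 FPKM elsewhere. Ventricular markers were positive at 9 of 9 (median 0.46), and at 7 of 9 without control 2 (median 0.08). The light chain genes Myl2 and Myl3 were at 1138 and 854 FPKM in control 2, and at least 2095 and 1884 FPKM elsewhere. Fhl2 was at 235 FPKM in control 2 and 385 to 530.5 FPKM elsewhere, Lbh at 168 and 368 to 475 FPKM, and Hey2 at 5.56 and 12.2 to 14.2 FPKM. Myh7, the slow myosin heavy chain of the fetal ventricle, was at 107, 42.1 and 108 FPKM in controls 1 to 3 and 229.7, 184 and 139.8 FPKM in STZ 1 to 3. Its groups did not overlap, a pattern seen at 8.54% of the genes tested. Its log2 fold change of 1.19 (SE 0.391; limma, unadjusted p = 0.0195, adjusted p = 0.922) was 0.74 without control 2.

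Stress and fetal programme genes, a list that holds Nppa, Nppb and Myh7, had 8 of 11 positive (median 0.31, and 0.24 without control 2). Tnni1, the slow skeletal troponin I of fetal heart, was at 228 ± 77.8 and 325 ± 65.3 FPKM and Fhl1 at 82.5 ± 5.10 and 70.9 ± 6.69 FPKM. Trabecular and conduction markers were positive at 4 of 7 (median 0.05), and at 5 of 7 without control 2 (median 0.04), with Irx3 at 10.5 ± 6.62 and 16.3 ± 2.66 FPKM, Cacna1g at 11.99 ± 3.21 and 15.1 ± 2.96 FPKM, and Gja5 at 33.5 FPKM in control 2 and 4.4 to 8.63 FPKM elsewhere. Endocardial markers were positive at 0 of 8 (median -0.31, and -0.18 without control 2), with Tmem108 at 2.02 ± 0.478 and 1.34 ± 0.414 FPKM, Postn at 143 ± 41.2 and 104 ± 16.6 FPKM and Cdh11 at 10.2 ± 4.65 and 6.55 ± 0.525 FPKM.

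Cardiomyocyte markers had 11 of 12 positive (median 0.34, and 0.02 without control 2), with Myom1 at 79.3 ± 29.8 and 101 ± 7.43 FPKM, Ryr2 at 42.9 ± 18.3 and 54.0 ± 5.12 FPKM and Pln at 340.1 ± 204 and 466 ± 86.6 FPKM. Fibroblast markers had 0 of 10 positive (median -0.45, and -0.17 without control 2), with Lum at 80.9 ± 12.3 and 60.8 ± 3.88 FPKM, Dcn at 95.5 ± 12.7 and 73.2 ± 3.24 FPKM and Mfap4 at 83.0 ± 94.0 and 22.5 ± 2.96 FPKM. Smooth muscle and pericyte markers had 3 of 8 positive (median -0.02), and 2 of 8 without control 2 (median -0.09), with Myh11 at 7.505 ± 2.82 and 4.63 ± 0.423 FPKM, Abcc9 at 35.7 ± 19.96 and 51.0 ± 3.09 FPKM and Kcnj8 at 15.1 ± 2.91 and 17.5 ± 1.38 FPKM. Endothelial markers had 4 of 9 positive (median -0.001), and 0 of 9 without control 2 (median -0.07), with Fabp4 at 94.6 ± 25.9 and 77.7 ± 6.19 FPKM, Emcn at 10.2 ± 1.25 and 9.17 ± 0.316 FPKM and Kdr at 32.1 ± 15.7 and 39.95 ± 3.45 FPKM. Erythroid markers had 0 of 6 positive (median -1.01, and -0.39 without control 2), with Slc4a1 at 2.78 ± 1.76 and 1.04 ± 0.564 FPKM, Hbb-bt at 455 ± 437 and 142 ± 57.8 FPKM and Hba-a1 at 3962 ± 3166 and 1580 ± 609.6 FPKM. Of the 9 lung and thymus markers, 0 passed the filter on low values.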
